A study of Drosophila melanogaster with 6 samples.

Results

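The mitochondrial ribosomal proteins of Drosophila are encoded by nuclear genes whose symbols start with mRpL (large subunit) or mRpS (small subunit), and these symbols alone chose the genes described here. The gene table used holds 73 such genes, and 69 of them (44 of the large and 25 of the small subunit) had a probe set that names exactly 1 gene, out of 11981 genes measured in this way. The S2 cells of the study, a Drosophila cell line of embryonic origin with features of blood cells, were treated for 2 h with 0.1 mM protocatechuic aldehyde (PA) or with vehicle. Both groups were grown in Schneider's medium with insulin and fetal bovine serum, and the labels give no genotype or transgene for the line. RNA of 3 PA samples and of 3 vehicle samples was hybridised to GeneChip Drosophila genome 2.0 arrays, 1 array for each sample, and the values are MAS5 signals, that is, linear intensities scaled to a common trimmed mean. Of the remaining 4 genes, mRpL53 and mRpS10 lie on probe sets shared with another gene and mRpL34 and mRpL37 were matched to no probe set, so no values are given for them.

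Mitochondrial ribosomes translate the few proteins that the mitochondrial genome encodes, which are core subunits of the respiratory complexes and of ATP synthase. Their RNA is made in the organelle, whereas all their proteins are translated in the cytosol and imported, so that both kinds of ribosome and both genomes contribute to one respiratory chain. Many of the proteins have a bacterial homologue, and others were added in the mitochondrial lineage. The large subunit forms peptide bonds and holds the exit tunnel, and the small subunit decodes the messenger RNA.

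After 2 h with PA these genes were close to their level with vehicle. The log2 change (PA minus vehicle) of the 69 genes lay between -0.20 for mRpL11 and 0.16 for mRpL28, which is 0.870-fold to 1.12-fold, and its median was -0.015 (-0.096 with median centring and 0.065 with 75th percentile centring of the arrays, so that its sign depended on the scaling). With limma and Benjamini-Hochberg adjustment over all 18769 probe sets that are not controls, a gene was called at an adjusted p under 0.05. By this rule mRpL28 rose, 0 of the 69 genes fell and 68 did not pass. Of all probe sets tested, 2.29% were called higher and 2.82% were called lower. Among 3861 other genes within the range of brightness of the mitoribosomal genes, 2.82% were called higher and 9.58% lower. At an unadjusted p under 0.05 from limma, 4 of the 69 genes were higher and 3 were lower, against 7.1% and 9.93% of all probe sets. The 95% interval of the change lay within 1.5-fold in either direction for all 69 genes and within 1.2-fold for 67 of them, the exceptions being mRpL11 and mRpL45. In RNA from whole cultures, a change of the level in each cell and a change in the share of cells that express a gene cannot be told apart, and the signals are relative to the total of each array. The p-values set the difference between the groups against the scatter within them, which limma moderates over all probe sets. Nothing in the labels says that the 3 cultures of a group were independent, so that scatter may be technical.

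**Figure D1:**
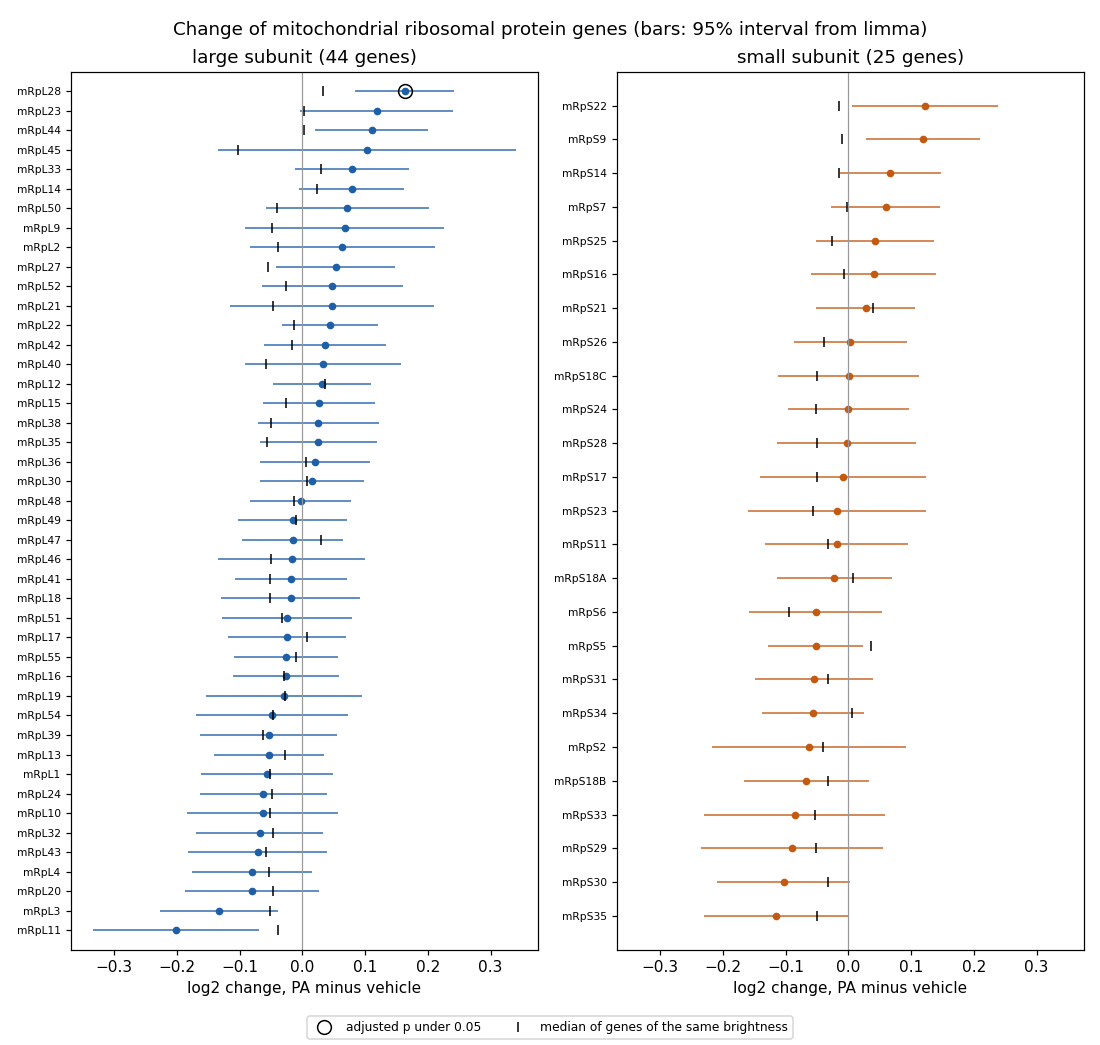
The log2 change with PA (x axis, PA minus vehicle, 3 arrays in each group) is shown for 44 large subunit genes (left) and 25 small subunit genes (right), with the 95% interval from limma as a bar and the median change of 200 other genes of the same brightness as a tick. Only mRpL28, at 0.16, is circled as called, and most intervals cover 0.

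Among the large subunit genes above 0, mRpL28 was the single gene that passed the test. Its product is the homologue of the bacterial large subunit protein of the same number. Its signals were 3632, 3771 and 3790.0 on the PA arrays, against 3383, 3246 and 3369.7 on the vehicle arrays. Every PA array was above every vehicle array, and the means were 3731 ± 86.3 with PA and 3333 ± 75.9 with vehicle (SD, n = 3 each). PA minus vehicle, mRpL28 changed by 0.16 on the log2 scale, or 1.12-fold (standard error 0.037, 95% interval 0.084 to 0.24, adjusted p = 0.0204 by limma). The exact permutation test of the 3 against 3 arrays gave p = 0.1 (2-sided), the smallest value that this design allows. Other genes of the same brightness had a median change of 0.032, and 94.5% of them had a smaller change than mRpL28. The call was lost in 6 of 17 limma alternatives, over which the adjusted p ran from 0.00364 to 0.747. These were median centring (adjusted p = 0.747), a variance without trend (0.516), quantile normalisation (0.0566), and fits without PA replicate 2 (0.0933), PA replicate 3 (0.088) or vehicle replicate 2 (0.094).

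The next largest positive changes did not pass the test. mRpL23, part of the rim of the exit tunnel in the ribosomes of other species, had signals of 2180.3, 2168 and 2549.9 with PA, against 2144, 2146 and 2049 with vehicle. The groups did not overlap, but the 0.12 of its log2 change (adjusted p = 0.316) came mainly from the array of PA replicate 3. mRpL44, whose mammalian homologue lies near the tunnel exit, had 2695, 2795 and 2811 with PA and 2441, 2669 and 2583 with vehicle. All its PA arrays were higher, with a difference of 0.11 on the log2 scale (standard error 0.042, limma's adjusted p = 0.174). mRpL45, which in mammals places the ribosome at the inner membrane, had the dimmest probe set of the 69 genes, at 340.3, 356 and 358 with PA and 338, 388 and 267 with vehicle. Here the vehicle arrays spanned the PA arrays, and the log2 change of 0.10 had the widest interval of all genes, from -0.13 to 0.34. Without vehicle replicate 3 this change was -0.044.

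Of the small subunit, mRpS22 and mRpS9 had the largest positive changes, and neither passed the test. mRpS22, a protein without a bacterial homologue, had signals of 2221, 2236 and 2103 with PA, against 2202, 1918 and 1919 with vehicle. The array of vehicle replicate 1 reached the PA arrays. For mRpS22 the difference was 0.12 on the log2 scale (standard error 0.054, limma's adjusted p = 0.262), and without that array it was 0.19 (adjusted p = 0.0435). mRpS9, a protein of the head of the small subunit, had 2319, 2264 and 2196 with PA, against 2018, 2054 and 2169 with vehicle. Its groups were next to each other without overlap, at a log2 change of 0.12 (adjusted p = 0.138). Under 75th percentile centring, mRpL44, mRpS9 and mRpS22 passed the test as well (adjusted p = 0.0331, 0.0221 and 0.026), since this scaling raised the median of the large subunit to 0.071 and that of the small subunit to 0.062. Over the limma alternatives the adjusted p ran from 0.0331 to 0.929 for mRpL44, from 0.0221 to 0.91 for mRpS9 and from 0.026 to 0.902 for mRpS22.

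**Figure D2:**
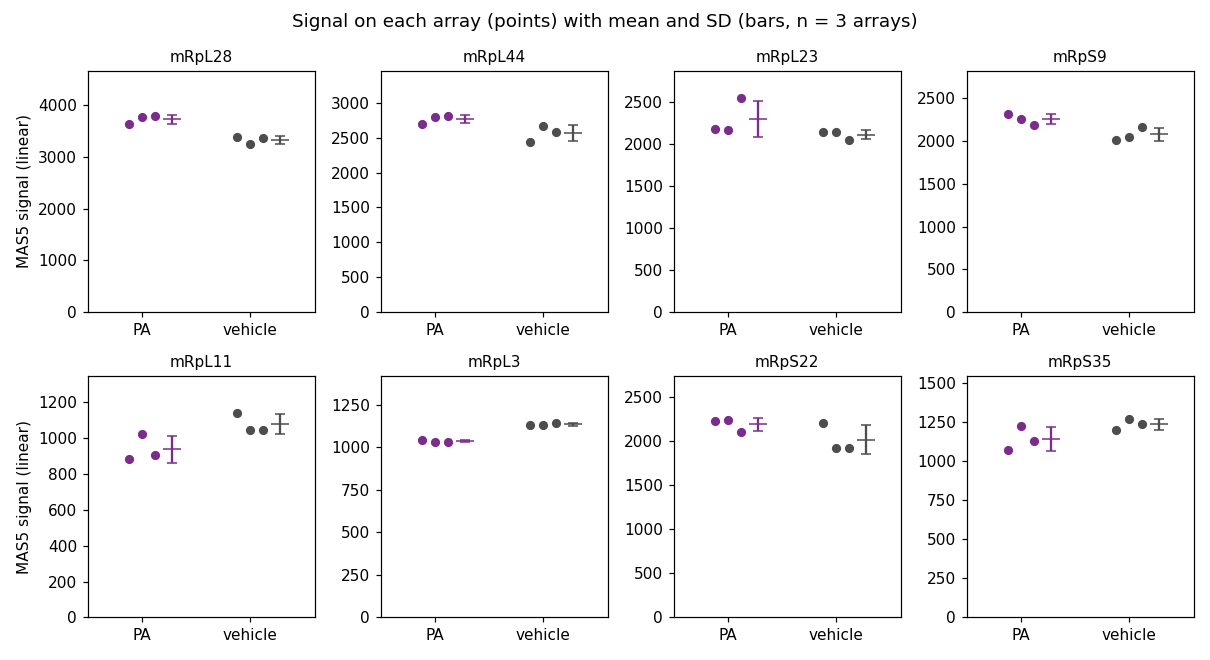
The MAS5 signal (y axis, linear scale from 0) of 8 genes is shown on the 3 PA arrays and the 3 vehicle arrays, with the mean and SD beside the points. For mRpL28 and mRpL44 all PA points are above the vehicle points, for mRpL11 and mRpL3 they are below them, and the difference is small against the level in each panel.

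The largest negative changes were those of mRpL11 and mRpL3, and neither passed the test. mRpL11 belongs to the base of the stalk that receives the translation factors. Its signals were 882, 1025 and 905 with PA, against 1140, 1045 and 1044 with vehicle. The array of PA replicate 2 was close to the vehicle arrays, although the groups did not overlap. For mRpL11 the difference was -0.20 on the log2 scale (standard error 0.062, 95% interval -0.33 to -0.069, limma's adjusted p = 0.0849), and without PA replicate 2 it was -0.27 (adjusted p = 0.0335). Among genes of the same brightness, 9.5% had a lower change. mRpL3, a core protein near the peptidyl transferase centre, had 1042, 1034 and 1029.7 with PA and 1130.0, 1132 and 1144 with vehicle. The arrays of each group were close together, and the replicate SD of 0.0090 on the log2 scale was the smallest of the 69 genes. The difference for mRpL3 was -0.13 on the log2 scale (standard error 0.043, limma's adjusted p = 0.105). The methods' t-test, which uses the spread of this gene alone, gave an adjusted p of 0.0365 for mRpL3. Over the limma alternatives the adjusted p ran from 0.0598 to 0.673 for mRpL3 and from 0.0335 to 0.556 for mRpL11.

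In the small subunit the most negative changes were those of mRpS35, mRpS30, mRpS29 and mRpS33. mRpS35, a protein of the head, had 1071, 1219.9 and 1129 with PA, against 1197, 1266 and 1238 with vehicle, which overlapped (log2 change -0.12, adjusted p = 0.287). mRpS30 had 1797, 1823 and 1794 with PA and 2087, 1917 and 1821 with vehicle, so that the vehicle arrays varied more than the PA arrays (log2 change -0.10, adjusted p = 0.31). mRpS29, the homologue of the GTP-binding protein DAP3, had 980.0, 982 and 1193 with PA, against 1128, 1118 and 1097 with vehicle. Its PA replicate 3 was the highest of the 6 arrays and the other PA arrays were the lowest, at a log2 change of -0.090. mRpS33 had 1328, 1398 and 1393 with PA, against 1276, 1550.1 and 1562 with vehicle. Its vehicle replicate 1 was the lowest of the 6 arrays, and the log2 change was -0.086. Neither mRpS29 nor mRpS33 passed the test (adjusted p = 0.592 for mRpS29 and 0.613 for mRpS33).

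Grouped by place in the ribosome, as known from bacteria and mammals and assigned after the values were seen, no group had all its members on one side of 0. Of the 4 genes near the peptidyl transferase centre, mRpL2 (0.064) and mRpL27 (0.053) had positive log2 changes, and mRpL16 (-0.026) and mRpL3 (-0.13) negative ones. Among the 7 genes of the exit tunnel the log2 changes ran from -0.080 for mRpL4 to 0.12 for mRpL23, with a median of 0.044. The stalk genes were mRpL10, mRpL11 and mRpL12 of the factor-binding stalk and mRpL1 of the separate L1 stalk. The median change of these 4 genes was -0.060, and mRpL12, the protein repeated along the factor-binding stalk, was at 0.031. All of these stalk genes lay below the median of genes of their own brightness, with differences of -0.0045 for mRpL1, -0.0049 for mRpL12, -0.011 for mRpL10 and -0.16 for mRpL11. The 6 genes of the central protuberance (mRpL18, mRpL38, mRpL40, mRpL46, mRpL48 and mRpL52), which faces the small subunit, were between -0.019 and 0.048, the narrowest range among these groups. All 6 lay above the median of genes of their own brightness, by 0.010 (mRpL48) to 0.091 (mRpL40), against 27 of all 44 large subunit genes. In the head of the small subunit 3 of 8 genes were above 0 (mRpS7, mRpS9 and mRpS14), and the range was -0.12 to 0.12. The 5 platform genes (mRpS6, mRpS11, mRpS18B, mRpS18C and mRpS21) were between -0.067 and 0.028. Relative to the median of genes of their own brightness, these other groups were mixed. Above it were 3 of the 4 genes near the peptidyl transferase centre and 4 of the 7 genes of the exit tunnel. In the small subunit, 4 of the 8 head genes and 3 of the 5 platform genes were above it. None of the genes grouped by site passed the test.

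Genes taken to have a bacterial homologue and genes taken as particular to mitochondria were described side by side, and the difference between them was not tested. The classes follow the number in the symbol, with mRpS24 added to the first class. Homology was not checked gene by gene, so single genes may stand in the wrong class. The median log2 change was -0.00031 for the 41 genes of the first class, of which 20 were above 0. It was -0.016 for the 28 genes of the second class, of which 10 were above 0. The only called gene, mRpL28, is in the first class. The SD of the change over genes was 0.071 in the first class and 0.063 in the second.

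The large and the small subunit were compared as sets, without a test, since the genes of a set are not replicates. The median log2 change was -0.0089 for the large subunit and -0.018 for the small subunit, a difference of 0.0091. The spread between arrays of the same difference was 0.019 (pooled SD within groups). On the single arrays, the large minus small difference of the median deviation from each gene's own mean was -0.011, 0.021 and 0.0019 with PA, against -0.016, -0.012 and 0.022 with vehicle. The PA and vehicle arrays overlapped in this measure. Of the large subunit genes 21 of 44 were above 0, and of the small subunit genes 9 of 25. In mammals the homologues of mRpS18A and mRpS30 sit on the large subunit despite their names. mRpS18A had 2223, 2222 and 2303 with PA and 2274, 2190.4 and 2393 with vehicle (log2 change -0.022, adjusted p = 0.874). With both genes counted in the large subunit, the difference between the subunits was -0.0064, within the spread between arrays. The sign of each median depended on the scaling: both were below 0 as deposited and with each array centred on its median, and above 0 with 75th percentile centring, quantile normalisation and cyclic loess. With the deposited scaling 30 of the 69 genes were above 0, against 6 with median centring and 61 with 75th percentile centring.

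**Figure D3:**
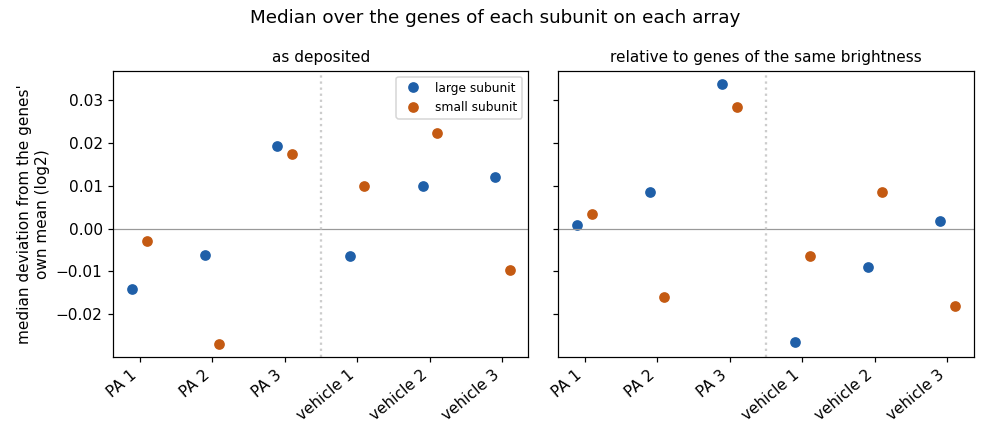
The median over 44 large and 25 small subunit genes of the log2 deviation from each gene's mean over the 6 arrays is shown for every array, as deposited (left) and after subtraction of the median of 200 genes of the same brightness (right). PA replicate 3 is the highest PA array for both subunits, and neither subunit separates the PA from the vehicle arrays on the left.

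The changes were described beside the brightness of the probe sets, since the median change of other genes differed with brightness. Brightness here is the mean log2 signal over the 6 arrays. It depends on the probes as well as on the transcript, so that it gives no order of expression between genes. Of the 23 mitoribosomal genes over 2000 in mean signal, 15 had a positive change (median 0.031). Of the 40 genes between 1000 and 2000, 12 had one (median -0.025). Of the 6 genes under 1000, 3 had one (median 0.0075), and the dimmest gene, mRpL45, was at 0.10, so that the dim genes did not continue the order of the brighter classes. Other genes had a median log2 change of -0.054 at a log2 signal between 10 and 10.5 and of 0.024 between 11.5 and 12, and the mitoribosomal genes there had medians of -0.034 and 0.029. For each gene the 200 other genes nearest in brightness were therefore taken for comparison. Relative to their median, 41 of the 69 genes were higher and 28 were lower, and the median difference was 0.015 (0.012 for the large and 0.039 for the small subunit). The change of 63 genes lay between the 10th and the 90th percentile of these 200 genes. The 5 above it were mRpL23, mRpL28, mRpL45, mRpS9 and mRpS22, and the 1 below it was mRpL11. On the arrays, the large subunit medians relative to genes of the same brightness were 0.00084, 0.0085 and 0.034 with PA, against -0.026, -0.0090 and 0.0019 with vehicle. The value of 0.0019 lies above that of PA replicate 1, so that the groups overlapped. For the small subunit they were 0.0034, -0.016 and 0.029 with PA and -0.0064, 0.0085 and -0.018 with vehicle, which overlapped as well.

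**Figure D4:**
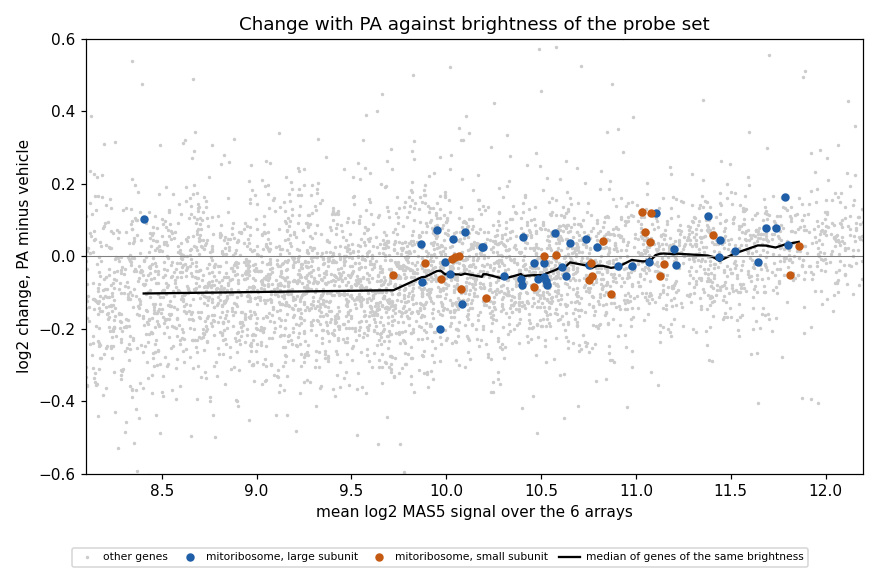
The log2 change with PA (y axis) is plotted against the mean log2 MAS5 signal (x axis) for the genes of both subunits and for other genes in grey, of which 20 lie outside the plotted range of 0.6. The black line joins, at the brightness of each of the 69 genes, the median of the 200 nearest other genes and runs between -0.10 and 0.040, and the coloured points lie around it.

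The interquartile range of the changes was 0.097 for the mitoribosomal genes, whereas sets of 200 other genes of the same brightness had 0.146 on average. It was 0.092 for the respiratory chain (0.065 for its genes within the brightness of the mitoribosomal genes) and 0.043 for the cytosolic ribosomal proteins, so that a range of this size was not particular to the mitoribosomal genes. Every PA array was above every vehicle array for 6 of the 69 genes (8.7%), and below every vehicle array for 5 (7.25%). Over all probe sets tested these shares were 9.61% and 11.9%. For other genes within the same range of brightness they were 10.6% and 29.2%, and over the 200 nearest genes of each member they averaged 14.2% and 26.2%. The 6 genes were mRpL22, mRpL23, mRpL28, mRpL44, mRpS9 and mRpS14, and the 5 genes were mRpL3, mRpL4, mRpL11, mRpS5 and mRpS34. mRpS14, a head protein with a bacterial homologue, had 2190.2, 2169 and 2144 with PA and 2081, 2039 and 2087 with vehicle, a change of 0.067 on the log2 scale (adjusted p = 0.415). mRpL22, at the exit tunnel, had 2837, 2799 and 2835 with PA and 2699, 2735 and 2782 with vehicle. These groups lay close to each other, and the log2 change of mRpL22 was 0.044 (adjusted p = 0.629). The difference of these shares between the mitoribosomal and the other genes was not tested.

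The precision of single genes depended on brightness. The median replicate SD on the log2 scale was 0.038 for genes over 2000 in signal, 0.065 for those between 1000 and 2000 and 0.086 for the 6 genes under 1000. At the bright end, mRpS21 of the platform had 3763, 3738 and 3748 with PA and 3601, 3824 and 3614 with vehicle, and its log2 change was 0.028 (95% interval -0.051 to 0.11). mRpS5, which lines the path of the messenger RNA, had 3609.8, 3528 and 3472 with PA and 3669, 3699 and 3632 with vehicle. All its PA arrays were lower, at a log2 change of -0.052 (adjusted p = 0.529), while genes of its brightness had a median of 0.035. mRpL12 had 3529, 3708 and 3609 with PA and 3593, 3470.1 and 3555 with vehicle, which overlapped. At the dim end, mRpL40 had 922, 932 and 985 with PA and 939, 856 and 983 with vehicle (log2 change 0.033), mRpS6 had 823, 818 and 847 with PA and 837, 857 and 885 with vehicle (log2 change -0.052), and mRpS23 had 888, 954 and 988 with PA and 905, 1058 and 907 with vehicle (log2 change -0.018). The arrays of both groups overlapped for each of these dim genes.

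Only mRpL47 and mRpS11 had a pair of probe sets. For mRpL47 the brighter one gave a log2 change of -0.016 (adjusted p = 0.905) and the other one 0.11 (adjusted p = 0.146), with 1758, 1738 and 1725 with PA against 1608, 1563 and 1654 with vehicle. The probe sets of this gene therefore disagreed in sign, and the second one had no overlap between the groups. For mRpS11 both were negative, at -0.018 and -0.058. The probe set of mRpS18B carries the suffix that the manufacturer gives to probes matching more than 1 transcript family, so that its value is uncertain.

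The small subunit also contains proteins whose genes have other symbols. tko (technical knockout) encodes the mitochondrial protein S12 of the decoding centre, and its mutants are sensitive to mechanical shock. It had 2660.1, 2571 and 2789 with PA and 2440.5, 2519.5 and 2535 with vehicle. All its PA arrays were higher, with a difference of 0.097 on the log2 scale for tko (standard error 0.041, limma's adjusted p = 0.236). bonsai, which encodes the homologue of the bacterial protein S15, had 1797, 1771 and 1877 with PA and 1785, 1907 and 1872 with vehicle, with a log2 change of -0.031 (adjusted p = 0.815). The arrays of bonsai overlapped.

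Of 9 measured genes listed as mitochondrial translation factors, 2 fell and 7 did not pass, with a median log2 change of -0.13, while 2.82% of all probe sets and 9.58% of other genes within the brightness of the mitoribosomal genes were called lower. Of these 2 genes mEFG1 is a translation factor, and OXA1L is an insertase. OXA1L, the homologue of the protein that takes nascent chains from the ribosome into the inner membrane, had 1094, 1124 and 1149 with PA and 1301, 1301 and 1282 with vehicle. No PA array of OXA1L came near the vehicle arrays, and the difference was -0.21 on the log2 scale (standard error 0.044, limma's adjusted p = 0.015). mEFG1, the elongation factor of translocation, had 569, 581 and 543 with PA and 688, 636 and 668 with vehicle, a log2 change of -0.23 (adjusted p = 0.0319). The elongation factors mEFTu1 and mEFTs were at -0.039 and 0.010, and mIF2 and mIF3 at -0.16 and -0.18. Below 0 were 7 of the 9 genes and above 0 were 2. For 3 of the 9 (mEFG1, OXA1L and mIF3) every PA array was below every vehicle array. Of 8 measured genes of mitochondrial transcription and its RNA, mTTF fell and 7 did not pass, with a median log2 change of -0.16. A count of 1 in 8 is near the 9.58% called lower among other genes within the brightness of the mitoribosomal genes. At an unadjusted p under 0.05 from limma, however, 5 of the 8 were lower and 0 higher, against 9.93% of all probe sets lower. Every PA array was below every vehicle array for 5 of the 8 genes, against 11.9% of all probe sets. Among other genes within the brightness of the mitoribosomal genes this share was 29.2%, and the difference was not tested. mTTF, which binds mitochondrial DNA and ends transcription, had 519.9, 529 and 539.6 with PA and 675, 661 and 603 with vehicle, a log2 change of -0.29 (adjusted p = 0.0153). After cyclic loess, which removes differences that depend on signal, the calls of OXA1L, mEFG1 and mTTF were lost (adjusted p = 0.0576 for OXA1L, 0.158 for mEFG1 and 0.0704 for mTTF), with log2 changes of -0.17, -0.17 and -0.22 in that order. With limma under its alternatives the adjusted p ran from 0.00922 to 0.445 for OXA1L, from 0.0211 to 0.447 for mEFG1 and from 0.0104 to 0.401 for mTTF. Of the same transcription list, mTerf5, mTerf3, mtTFB2 and PolrMT were at -0.16, -0.17, -0.17 and -0.16, with every PA array below every vehicle array. None of them passed the main test (adjusted p = 0.0702, 0.128, 0.244 and 0.292 by limma). The 3 genes above 0 were TFAM, the packaging protein of mitochondrial DNA (0.051), the RNA-binding protein bsf (0.021) and scu (0.072). Of 14 symbols listed for ribosome assembly in mitochondria only Mrm2, an RNA methyltransferase, and Mpv17, an inner membrane protein, were measured, and neither passed (log2 changes of 0.090 and 0.068).

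The cytosolic ribosomal proteins and the respiratory chain served for comparison. Of 41 measured cytosolic ribosomal protein genes 28 rose (68.3%), with a median log2 change of 0.16, and of 69 respiratory chain genes 14 rose (20.3%), with a median of 0.12. None of these genes was called lower. Of all probe sets tested, 2.29% were called higher, and no share was counted for genes as bright as these. The counts are from the main test only. Over the alternatives of limma, the higher calls among all probe sets (429 in the main test) ran from 7 with no trend of the variance to 988 with 75th percentile centring. The probe sets of the cytosolic genes were much brighter, with a median log2 signal of 14.1 against 10.6 for the mitoribosomal genes. The cytosolic set was chosen by symbol, and genes named only as like a ribosomal protein are part of it. Only 2 genes of this set, RpLP0-like (log2 change 0.0058) and RpS19b (0.016), lay within the brightness of the mitoribosomal genes. Of the respiratory chain, 16 genes lay there and 0 of them was called by limma, with a median log2 change of 0.054. At an unadjusted p under 0.05 from limma, 4 of the 16 were higher and 0 lower, against 7.1% and 9.93% of all probe sets. For 8 of the 16 every PA array was above every vehicle array, against 10.6% of other genes within that brightness. Above the median of genes of their own brightness were 13 of the 16, against 41 of the 69 mitoribosomal genes. Relative to genes of the same brightness, the median was 0.033 for the cytosolic ribosomal proteins and 0.040 for the respiratory chain, against 0.015 for the mitoribosomal genes. Only the mitoribosomal genes and the gene itself were kept out of these reference genes. The cytosolic and respiratory chain genes were thus measured partly against their own sets, so that their values are not directly comparable with the 0.015. The difference between the 3 sets was not tested. For the cytosolic set, with 2 genes within the brightness of the mitoribosomal genes, brightness cannot be told apart from function. For the respiratory chain only 16 of 69 genes could be set beside the mitoribosomal genes at that brightness.

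**Figure D5:**
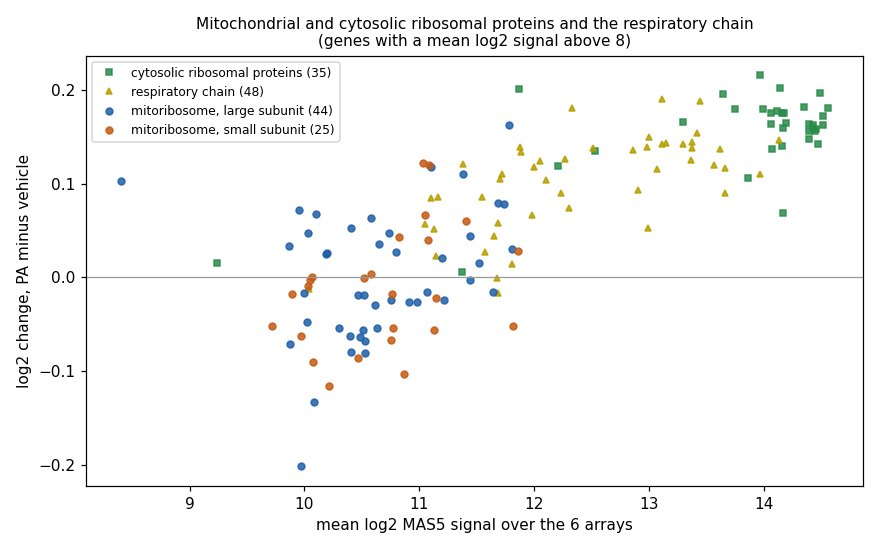
The log2 change with PA (y axis) is plotted against the mean log2 MAS5 signal (x axis) for 44 large and 25 small mitoribosomal genes, 35 of 41 cytosolic ribosomal protein genes and 48 of 69 respiratory chain genes, which are those with a log2 signal above 8. Most cytosolic genes sit at the bright end, all of those shown between 0.0058 and 0.22, and the mitoribosomal genes between -0.20 and 0.16.

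The blood cell markers of the S2 line differed in brightness. Hml was at 12185 to 12899 with PA and 10884 to 11696 with vehicle, and srp at 4984 to 5441 with PA and 5721 to 5953 with vehicle. Others were dimmer, with eater at 464 to 507 with PA and 523 to 569 with vehicle. Pxn, at 150 to 167 with PA and 110 to 176 with vehicle, was no brighter than the neuron marker elav. Of 10 such markers 2 rose (Hml and NimC1), 2 fell (srp and Ppn) and 6 did not pass, against 2.29% of all probe sets called higher and 2.82% called lower. After cyclic loess the calls of Hml, NimC1 and Ppn were lost (adjusted p = 0.557 for Hml, 0.0879 for NimC1 and 0.0816 for Ppn), and srp remained called (adjusted p = 0.0184). Over the alternatives of limma the adjusted p ran from 0.0126 to 0.871 for Hml, from 0.00785 to 0.8 for NimC1, from 0.0153 to 0.563 for srp and from 0.00721 to 0.423 for Ppn. Markers of other cell types (muscle, neurons, germline and fat body) were measured for 10 genes, and 0 of them was called by limma (1 was higher, vas, and 0 lower at an unadjusted p under 0.05). The brightest were elav of neurons, at 142 to 198 with PA and 173 to 189 with vehicle, and bam of the germline, at 81.5 to 100.4 with PA and 90.6 to 115 with vehicle. The other 8 were below 50 on every array, and vas had 8.68, 22.2 and 15.1 with PA, against 2.08, 2.64 and 3.88 with vehicle. Over all probe sets, 75% of the signals were under a value of 491 to 495 on the PA arrays and of 514 to 533 on the vehicle arrays. The part of this shift in the changes of single genes was not tested beyond the other scalings.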

How the data were processed

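The authors deposited MAS5 signals, which are linear intensities, for 18952 probe sets on 6 arrays (3 with PA, 3 with vehicle). The MAS5 version is not given in the sources used here. The mean signal was 500.01 on all 6 arrays once the lowest and highest 2% were left out, so the values were used as they are. After removal of 183 control probe sets, log2 signals of 18769 probe sets were fitted with limma 3.58.1 in R 4.3.3 (lmFit, eBayes with a trend), PA minus vehicle, with Benjamini-Hochberg adjustment. Adjusted p-values are from limma unless another test is named. Exact permutation tests used scipy 1.17.1. Probe sets with exactly 1 gene (13646) were given current symbols by identifier, and the brightest by mean log2 signal stood for a gene. The fit was tested on simulated data. The number of arrays limits the precision.

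Named are the called genes, the 6 largest changes in each direction among genes above the median brightness of all probe sets, the 2 brightest and 2 dimmest of each subunit, mRpS18A, mRpS30, tko and bonsai, and genes of the related lists (translation factors, transcription, assembly, cytosolic ribosomal proteins by symbols starting with RpL or RpS, respiratory chain by symbols of complex subunits, cell markers). mRpL47, mRpS11, mRpS14, mRpL22 and the genes of the ribosomal sites were named after their values were seen. The members and lists were chosen with earlier results of these data known. Positions are left out, because no build stands in the array annotation. Alternatives were other scalings, offsets of 16 and 64, a filter on signal, other variance models, a block on the sample number, the methods' t-test (Student's test on log2 signals, p under 0.05), the mean over a gene's probe sets, and leaving out each array.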

Additional observations from a re-analysis of the deposited data

How the results depend on the processing

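The number of mitoribosomal genes called higher, 1 in the main test, was 0 with median centring, with quantile normalisation and with no trend of the variance, 4 with 75th percentile centring, and 0 to 2 when 1 array was left out. The number called lower, 0 in the main test, was 0 to 1 when 1 array was left out. The methods' t-test had 4 genes higher and 3 lower at p under 0.05, and 0 and 1 after Benjamini-Hochberg adjustment. The call of mRpL28 was kept in 11 of 17 alternatives of limma, with an adjusted p from 0.00364 (75th percentile centring) to 0.747 (median centring) and 0.516 with no trend. Over all probe sets, 429 were higher and 529 lower, against 58 and 350 with median centring, 988 and 211 with 75th percentile centring, 238 and 266 with quantile normalisation and 7 and 0 with no trend.

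The median log2 change of the large subunit (-0.0089) was -0.090 with median centring, 0.071 with 75th percentile centring, 0.016 with quantile normalisation, 0.013 with cyclic loess, 0.0063 with the mean over a gene's probe sets, and -0.014 to 0.0088 when 1 array was left out. That of the small subunit (-0.018) was -0.099, 0.062, 0.018 and 0.0088 under the first 4 of these, and -0.039 to 0.0040 when 1 array was left out. The difference between the subunits (0.0091) ran from -0.0064 to 0.025 over the alternatives, so that its sign was not fixed, and it was larger than the spread between arrays (0.019) with the mean over a gene's probe sets (0.024), without PA replicate 1 (0.023), without PA replicate 3 (0.025) and without vehicle replicate 2 (0.0194). Centring on the median or on the 75th percentile shifts every gene by one amount. The mean over a gene's probe sets altered only mRpL47 among the large subunit genes, whose probe sets gave log2 changes of -0.016 and 0.11. For the remaining changes the cause was not tested.

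Of the named genes, the log2 change took the other sign with median centring for mRpL12 (-0.050), mRpL40 (-0.048) and mRpS21 (-0.053), with 75th percentile centring for mRpS5 (0.028), mRpS6 (0.028), mRpS18A (0.058) and mRpS23 (0.062), with quantile normalisation for mRpS6 (0.018), mRpS21 (-0.0056) and mRpS23 (0.037), and with cyclic loess for mRpS6 (0.0028) and mRpS23 (0.032). When 1 array was left out it ran from -0.023 to 0.077 for mRpL40, from -0.044 to 0.23 for mRpL45, from -0.053 to 0.011 for mRpS18A and from -0.056 to 0.057 for mRpS23. None of these was called.

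The labels number the arrays 1 to 3 in both groups. Residuals of arrays with the same number correlated at -0.0016 to 0.019 across probe sets, and those with different numbers at -0.017 to 0.018. The median replicate SD was 0.49 over all probe sets and 0.054 for the mitoribosomal genes. Noisy probe sets therefore weighed most, and pairing among the quieter ones cannot be judged from these correlations. The labels name no pairing, so the numbers were not taken to pair the arrays. With the sample number as a block, 1 mitoribosomal gene was called higher and 0 lower, and the replicate block left the call of mRpL28 in place (adjusted p = 0.0351). The signal of a dim probe set limits what can be called, as for mRpL45.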
